A study of Mus musculus with 167 samples.

Results

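The livers of heterozygous Q175 mice at 10 months of age were compared with those of control mice of the same age, across every microRNA precursor counted. In Q175 mice 1 copy of *Htt* is intact and the first exon of the other was replaced by that of human *HTT*, bearing a CAG repeat of nominally 175 units. The members were the 24 of 167 livers whose labels gave this age and genotype: 8 Q175 livers (4 labelled female, 4 male), 8 livers of heterozygous Q20 mice (5 female, 3 male) and 8 livers of wild-type (WT) mice (4 female, 4 male). Q20 mice carry the same kind of knock-in with a nominal 20 repeats, near the usual length in people, and the WT mice were littermates of the Q20 line, so that both groups served as controls. All mice were of the C57BL/6 strain. A knock-in allele is carried by every cell of the animal, and the Q175 line arose from the Q140 line by expansion of the repeat. The Q175 mice were housed with their own line and the controls with Q20 animals, per the labels. Genotype, line and housing therefore cannot be told apart in any difference given here. Each sample was labelled as a separate mouse.

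MicroRNAs are short RNAs cut from hairpin precursors. Loaded into Argonaute, a mature strand pairs through its seed, the bases near its 5′ end, with sites in messenger RNAs and lowers their stability and translation. Precursors that lie close together are often cut from 1 primary transcript, and microRNAs with a shared seed are expected to share many targets. In liver, miR-122 and miR-192 mark hepatocytes, while miR-143 and miR-145 mark smooth muscle and other mesenchymal cells, and miR-1, miR-133, miR-206 and miR-208 mark striated muscle. Mutant huntingtin is expressed in liver as in brain, and liver serves in this allelic series as a tissue outside the nervous system.

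A selection of the precursors described here is shown by the main mature strand, so that seeds shared or not shared by neighbours and families can be seen. The deposited counts are per precursor and do not separate the 5p and 3p strands. Mature sequences were found in RefSeq (GRCm38.p6) for 233 of the 314 precursors tested. They are written 5′ to 3′ with the seed, bases 2 to 8, in capitals. The first sequences are those of the miR-125 and miR-99/100 families, which lie as neighbours at 3 loci and hold 1 seed each.
miR-125a-5p: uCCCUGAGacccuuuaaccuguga
miR-125b-5p: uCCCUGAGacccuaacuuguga
miR-99b-5p: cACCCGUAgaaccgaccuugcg
miR-99a-5p: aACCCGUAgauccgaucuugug
miR-100-5p: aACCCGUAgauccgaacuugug
The next are the 3 members of the miR-183 cluster, whose seeds differ from each other although they are cut from neighbouring hairpins.
miR-183-5p: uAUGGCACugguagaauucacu
miR-96-5p: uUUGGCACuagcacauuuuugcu
miR-182-5p: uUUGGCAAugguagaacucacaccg
Both miR-181a loci give 1 mature 5p sequence.
miR-181a-5p: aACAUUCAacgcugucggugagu
The next had negative fitted changes, miR-93 and its cluster mate miR-106b with the same seed and miR-27b and miR-484 with seeds of their own.
miR-93-5p: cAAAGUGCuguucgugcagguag
miR-106b-5p: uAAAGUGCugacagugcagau
miR-27b-3p: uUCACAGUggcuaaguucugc
miR-484: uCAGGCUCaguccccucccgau
The last are microRNAs that stood far above the other livers in Q175 F3 or F4. Those of miR-208b and miR-499 differ in 1 base of the seed, and miR-206 is made in skeletal muscle.
miR-208b-3p: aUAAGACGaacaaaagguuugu
miR-499-5p: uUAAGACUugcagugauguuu
miR-206-3p: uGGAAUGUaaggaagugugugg
miR-10b-5p: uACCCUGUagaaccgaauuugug
miR-204-5p: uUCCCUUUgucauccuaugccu

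Total counts lay between 2.35 and 5.40 M per liver (M, mega), with 3.24 ± 0.968 M in Q175 (SD, n = 8) and 3.19 ± 0.605 M in controls (SD, n = 16; exact two-sided permutation p = 0.859). Levels are given as CPM, the count divided by the liver's total in M counts. Of 1626 precursors in the table, 1284 had a count above 0 in at least 1 of the 24 livers and 314 passed the filter for testing (at least 10 counts in at least 7 livers of any genotype at this age). The 314 held 99.98% of all counts. Hepatocyte microRNAs led in every liver: Mir192, a p53-responsive microRNA abundant in liver and gut, ranged from 181125 to 265087 CPM in the 8 Q175 livers (median 216950) and from 188214 to 395653 CPM in the 16 controls (median 225693) and took 23.6% of counts on average. Mir22 followed with 19.5%, then Mir148a with 6.46%, Mir30a with 5.42%, Mir26a-2 with 4.02%, Mir21a with 3.91%, Mir10a with 3.54% and Mir143 with 2.48%. Mir122, the best known hepatocyte microRNA, ranged from 17358 to 23652 CPM in the 8 Q175 livers (median 21480) and from 8909 to 29514 CPM in the 16 controls (median 23416).

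Sequencing lanes were uneven between the groups. Of the Q175 livers 5 were read in lane 2 and 1 each in lanes 3, 6 and 8, and the controls were 4 in lane 2, 5 in lane 3, 5 in lane 8 and 2 in lane 1. Every fit therefore carried a lane term, and since Q175 F2 was the only one of the 24 in lane 6, that term left this liver without weight in the comparison of genotypes. Its values are shown but do not enter the fitted changes. The library labelled Q20 F1, female, had a summed level of 195 CPM for the testis- and male-rich X-linked microRNA cluster, against 9.34 to 27.0 CPM in the 12 other livers labelled female and 237 to 632 CPM in the 11 labelled male. The deposited sample name of this library also carries a code shared with 7 controls labelled male and 0 other females, while the 8 other female controls carry a different code. It was kept under its label, sex being a covariate in the fits, and results that move without it are named.

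No precursor was called between Q175 and controls at 10 months. With edgeR's quasi-likelihood test, 0 of 314 precursors (0%) passed a Benjamini-Hochberg adjusted p of 0.05, the smallest adjusted p was 0.291, and 21 (6.69%) had an unadjusted p under 0.05, of which 14 (4.46%) were higher and 7 (2.23%) lower in Q175. DESeq2 called 3 precursors, Mir1a-1, Mir133a-1 and Mir125a, with 26 at an unadjusted p under 0.05. Leaving out Q175 F1 gave 1 edgeR call, Mir1a-1, and 44 precursors with an unadjusted p under 0.05, and leaving out Q20 M1 gave the same single call and 17. Leaving out Q20 F1 gave 0 calls. The median log2 change over all 314 was -0.03. For 0 of 314 precursors (0%) did the 8 Q175 values lie wholly outside the range of the 16 controls. All genes named below as higher or lower are so by an unadjusted p or by their values alone.

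The intervals limit what such a comparison could miss. For 221 of 314 precursors the 95% interval of the log2 change lay within a fold of 2 either way, and for 148 within a fold of 1.5. Among the 129 with a mean of at least 100 CPM these numbers were 122 and 101, with a median SE of 0.14. For the 185 below that level, only 99 had an interval within a fold of 2 and the median SE was 0.32. A change of that size could therefore be missed in many of the scarcer precursors. Mir133a-1 and Mir10b had wide intervals despite high mean levels, and their values in single livers are given further on.

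**Figure D1:**
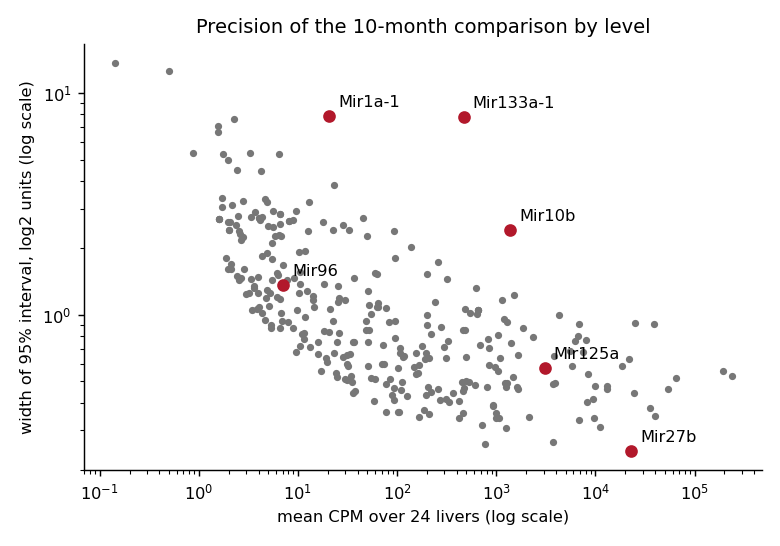
Width of the 95% interval of the log2 change, Q175 minus controls, against the mean level over the 24 livers (CPM), both on log scales; each point is 1 of the 314 precursors tested. The width falls with level down to 0.24 for Mir27b, while Mir1a-1, Mir133a-1 and Mir10b lie far above precursors of like level.

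Among the precursors higher in Q175, those of the miR-125 and miR-99/100 families stood out as neighbours on the genome. Mir125a, whose family represses differentiation and growth factor genes, ranged from 3293 to 4408 CPM in the 8 Q175 livers (median 3796) and from 1051 to 3679 CPM in the 16 controls (median 2722). All 8 Q175 livers were above the control median, yet the ranges overlapped. The log2 change was 0.48 ± 0.14 (SE), with a 95% interval of 0.19 to 0.77 and an adjusted p of 0.291 (edgeR quasi-likelihood; unadjusted p = 0.00235). It was 0.58 without Q175 F3 and F4, 0.42 without WT M4, the lowest control, and 0.51 within lane 2 alone (unadjusted p = 0.00105).

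Mir99b, 554 bases upstream of Mir125a in the gene Spaca6 (mm10, chr17:17830188-17830257 in an intron and chr17:17830812-17830879 in an exon, plus strand), ranged from 1409 to 2243 CPM in the 8 Q175 livers (median 1597) and from 427 to 2096 CPM in the 16 controls (median 1222). All 8 Q175 livers again exceeded the control median, and its log2 change was 0.38 ± 0.18 (SE) with an unadjusted p of 0.0471. The second pair lies in the Mir99ahg host gene on chr16. There Mir125b-2 ranged from 941 to 2068 CPM in the 8 Q175 livers (median 1431) and from 784 to 1530 CPM in the 16 controls (median 1158) with a log2 change of 0.29 ± 0.12 (SE), and Mir99a had a change of 0.22 ± 0.11 (SE) with an unadjusted p of 0.0572. In the third, on chr9, the changes were 0.28 ± 0.12 (SE) for Mir100 (unadjusted p = 0.0292) and 0.33 ± 0.16 (SE) for Mir125b-1 (unadjusted p = 0.048). All 6 log2 changes of these neighbouring precursors were positive. The let-7 precursors tested at the same loci were near 0, with 0.005 for Mirlet7c-1 on chr16 and 0.02 for Mirlet7a-2 on chr9. Both Mir125b precursors give the same mature 5p sequence and carried fractional counts in all 24 livers, so their separate values are uncertain. Mir99a and Mir100 also carried fractional counts in part of the livers, such as 976.871 and 1559.13 in Q175 F2. Their values may therefore not be wholly separate either.

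The 3 precursors of the miR-183 cluster, which is best known from sensory epithelia, were also higher (mm10, minus strand, Mir182 at chr6:30165918-30165992, Mir96 at chr6:30169446-30169551 and Mir183 at chr6:30169668-30169737, between genes). Mir96 ranged from 7.64 to 15.2 CPM in the 8 Q175 livers (median 10.4) and from 1.23 to 9.63 CPM in the 16 controls (median 4.74), a scarce microRNA whose Q175 values nevertheless all exceeded the control median. Its log2 change was 0.87 ± 0.33 (SE) with an unadjusted p of 0.0149. Mir182, the abundant member, ranged from 1237 to 3356 CPM in the 8 Q175 livers (median 2412) and from 669 to 3059 CPM in the 16 controls (median 1310). Q175 F1 was the single Q175 liver below the control median of Mir182, and Q20 M3 and WT F4, both read in lane 3 like the highest Q175 liver, reached Q175 levels. The log2 change of Mir182 was 0.45 ± 0.21 (SE) (unadjusted p = 0.0425) and that of Mir183 0.42 ± 0.23 (SE) (unadjusted p = 0.0758). Without Q175 F3 and F4 the 3 changes were 1.08 for Mir96, 0.56 for Mir182 and 0.64 for Mir183.

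The loci that hold the Mir181a and Mir181b precursors tended the same way. Mir181a-1, a regulator of lymphocyte signalling, ranged from 149.5 to 229.8 CPM in the 8 Q175 livers (median 179) and from 79.7 to 216 CPM in the 16 controls (median 136), with all 8 Q175 livers above the control median and a log2 change of 0.42 ± 0.14 (SE) (unadjusted p = 0.00648). The other 3 precursors of these loci had changes of 0.23 ± 0.12 (SE) for Mir181a-2, 0.23 ± 0.15 (SE) for Mir181b-1 and 0.32 ± 0.23 (SE) for Mir181b-2, with unadjusted p-values of 0.0618, 0.16 and 0.173. At a further miR-181 locus, on chr8, Mir181c and Mir181d had log2 changes between 0.15 and 0.16. Their smallest unadjusted p was 0.205 (edgeR quasi-likelihood). Mir181a-1 and Mir181a-2 give 1 mature 5p sequence and had fractional counts in 24 and 23 livers.

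Mir205, an epithelial microRNA, was scarce and ranged from 4.44 to 13.5 CPM in the 8 Q175 livers (median 4.99) and from 1.23 to 7.69 CPM in the 16 controls (median 3.96), with a log2 change of 0.75 ± 0.26 (SE). Mir145a, the smooth muscle microRNA, ranged from 429 to 1743 CPM in the 8 Q175 livers (median 491) and from 189 to 517 CPM in the 16 controls (median 408). Here Q175 F3 alone was at 1743 CPM and the next highest Q175 liver at 597 CPM. Its log2 change of 0.62 ± 0.21 (SE) became 0.34 without Q175 F3 and F4 (unadjusted p = 0.024). Mir582 and Mir184 completed the higher precursors, both scarce, with log2 changes of 0.49 ± 0.23 (SE) and 0.74 ± 0.35 (SE) and unadjusted p-values of 0.0427 and 0.0482; within lane 2 alone that of Mir184 was 0.02.

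**Figure D2:**
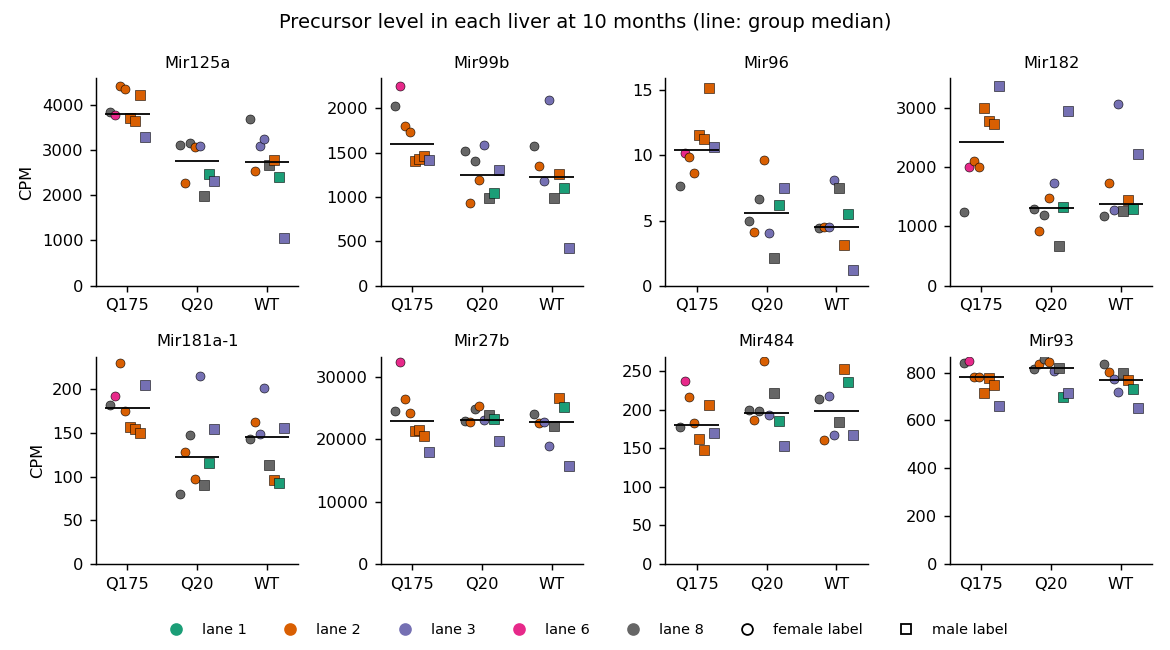
CPM of 8 precursors in each of the 24 livers, by genotype (horizontal axis), coloured by sequencing lane, with circles for livers labelled female, squares for male and a line at the group median. For Mir125a, Mir99b, Mir96 and Mir181a-1 all 8 Q175 livers lie above the median of the 16 controls, while for Mir27b, Mir484 and Mir93 the groups overlap almost wholly and the lane 6 liver (Q175 F2) is among the highest.

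The 7 precursors with lower fitted levels and an unadjusted p under 0.05 were Mir27b, Mir484, Mir93, Mir425, Mir219a-1, Mir802 and Mir144. Mir27b, a regulator of lipid metabolism genes, ranged from 18040 to 32466 CPM in the 8 Q175 livers (median 22885) and from 15693 to 26596 CPM in the 16 controls (median 23040). The medians were nearly equal, and only 4 of 8 Q175 livers lay below the control median, all labelled male. The Q175 livers labelled female all lay above it, 1 of them being Q175 F2, the highest of all and without weight in the fit. Within Q175 the means were 26956 CPM in females and 20371 CPM in males. The fitted log2 change was -0.18 ± 0.06 (SE) (unadjusted p = 0.0055), and -0.10 with an unadjusted p of 0.164 when the lane term was dropped. Mir27b had fractional counts in all 24 livers.

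Mir484, which targets mitochondrial fission genes, ranged from 147 to 238 CPM in the 8 Q175 livers (median 180.1) and from 153 to 263 CPM in the 16 controls (median 196), with 5 of 8 Q175 livers below the control median. Its log2 change was -0.32 ± 0.10 (SE) (unadjusted p = 0.00572) and -0.31 without Q175 F3 and F4. Mir93, of the miR-17 seed family that promotes proliferation, ranged from 661 to 849 CPM in the 8 Q175 livers (median 779.9) and from 651 to 856 CPM in the 16 controls (median 801) and changed by -0.19 ± 0.06 (SE) (unadjusted p = 0.00586). Its cluster mates in the gene Mcm7, Mir106b and Mir25, had log2 changes of -0.17 ± 0.09 (SE) and -0.15 ± 0.15 (SE) with unadjusted p-values of 0.0597 and 0.324. Mir425 ranged from 276 to 360.0 CPM in the 8 Q175 livers (median 341) and from 205 to 458 CPM in the 16 controls (median 338), so that the medians were nearly equal while the fitted change was -0.25 ± 0.10 (SE). Mir219a-1, an oligodendrocyte microRNA, ranged from 4.81 to 11.8 CPM in the 8 Q175 livers (median 6.06) and from 4.32 to 17.3 CPM in the 16 controls (median 8.68) and had a change of -0.53 ± 0.22 (SE).

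Mir802, a liver microRNA linked to glucose metabolism, varied widely in both groups. It ranged from 395 to 2877 CPM in the 8 Q175 livers (median 995) and from 455 to 2169 CPM in the 16 controls (median 1542), with a log2 change of -0.49 ± 0.22 (SE) (unadjusted p = 0.0385). The highest value of all was in Q175 F1. Levels of Mir802 differed by sex, with a mean of 1761 CPM in livers labelled female and 728 CPM in those labelled male. Within Q175 the means were 1860 CPM in females and 444 CPM in males. The medians above pool the sexes, whose shares differed between Q175 and controls, while the fit carried sex as a covariate. Mir144, the erythroid microRNA, ranged from 178 to 291 CPM in the 8 Q175 livers (median 241) and from 168 to 539 CPM in the 16 controls (median 296), all 8 Q175 livers lying below the control median, and its log2 change was -0.44 ± 0.21 (SE) (unadjusted p = 0.0476). Its neighbour Mir451a changed by -0.31 ± 0.23 (SE) with an unadjusted p of 0.195. Mir21a, induced in injured liver, Mir186 and Mir106b came next, and Mir21a had a change of -0.45 ± 0.22 (SE) (unadjusted p = 0.0517).

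**Figure D3:**
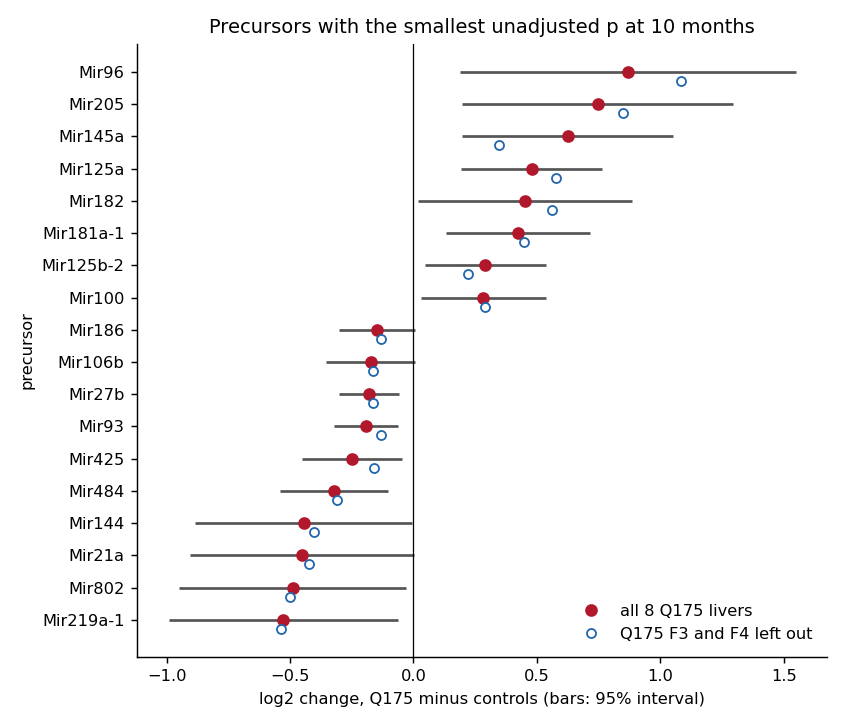
Log2 change, Q175 minus controls, of 18 precursors among the 10 higher and 10 lower with the smallest unadjusted p (Mir1a-1 and Mir133a-1 are left off the scale), as red points with 95% intervals; blue circles are the changes with Q175 F3 and F4 left out. All 18 circles lie on the same side of 0 as their points, and Mir145a moves from 0.62 to 0.34.

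Neighbouring precursors were examined together because they often share a transcript. Of the 314, 110 lay in 41 clusters (gaps of at most 10000 bases, same strand). In 29 of the 41 every tested member had a log2 change of the same sign, and 2 clusters, Mir99b with Mir125a and the miR-183 cluster, held at least 2 members with an unadjusted p under 0.05. Of 11 clusters with 3 or more members, 6 had 1 sign throughout. Members of a cluster share transcription and, where alike, reads, and are not independent.

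The lists of cell type and pathway microRNAs were read against the share of all precursors with an unadjusted p under 0.05, which was 4.46% for higher and 2.23% for lower. Over all 314 precursors 148 log2 changes were positive and 166 negative. Of the hepatocyte list, 12 of 12 members tested had negative log2 changes, with a median of -0.23 against -0.03 over all precursors, and 1 (Mir802) had an unadjusted p under 0.05. The most abundant, Mir192, Mir22 and Mir148a, had changes of -0.23 ± 0.13 (SE), -0.12 ± 0.13 (SE) and -0.23 ± 0.12 (SE). The summed level of the list was lowest in Q175 F3 (519616 CPM) and Q175 F4 (569215 CPM), followed by Q175 M3 (601266 CPM), and at least 612363 CPM in controls; without Q175 F3 and F4 its median change was -0.12. In a bulk tissue, fewer cells of a type and less RNA per cell cannot be told apart.

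The epithelial and biliary list went the other way. Of its 11 members, 9 had positive changes with a median of 0.26, and 3 (Mir205, Mir96 and Mir182) had an unadjusted p under 0.05, while Mir203 and Mir31 had changes of -0.03 ± 0.11 (SE) and -0.05 ± 0.10 (SE). Its summed level was 3955 to 5438 CPM in Q175 and 2487 to 4801 CPM in controls, and without Q175 F3 and F4 its median change was 0.32. The miR-200 precursors, keepers of the epithelial state, had changes between 0.19 for Mir200a and 0.36 for Mir200c, none with an unadjusted p under 0.05. Of the leukocyte list 8 of 11 had positive changes with a median of 0.17, and 1 (Mir181a-1) had an unadjusted p under 0.05. Its summed level was 5044 to 8984 CPM in Q175 and 2897 to 7458 CPM in controls. Without Q175 F3 and F4 its median change was 0.23. The most abundant member was Mir181a-2, with a mean of 4335 CPM in Q175 and 3433 CPM in controls. The list holds the Mir181a and Mir181b precursors described above, so its signs and its sum in part repeat that result. The general leukocyte microRNAs Mir223 and Mir150 had changes of 0.00 ± 0.14 (SE) and 0.23 ± 0.27 (SE).

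All 5 precursors of the erythroid list had negative changes, with a median of -0.27 and 1 (Mir144) with an unadjusted p under 0.05. Their summed levels were 13903 to 19388 CPM in Q175 and 13637 to 24470 CPM in controls. The list also held Mir16-1 and Mir16-2. Mir16-1, its most abundant member, averaged 8450 CPM in Q175 and 8350 CPM in controls, so much of the sum is that precursor. The list therefore does not isolate erythroid cells, and its neighbours Mir144 and Mir451a are not independent. All 11 tested members of the miR-17 to 92 clusters and their paralogs also had negative changes, with a median of -0.15 and 1 (Mir93) with an unadjusted p under 0.05. Of 14 precursors tied to liver metabolism and injury, 2 (Mir27b and Mir802) were lower and 0 higher; among them Mir34a had a change of -0.41 ± 0.28 (SE) and Mir122 of -0.19 ± 0.15 (SE). The 10 let-7 precursors were split evenly in sign, with a median of -0.01. Of 10 tested precursors of the imprinted Dlk1-Dio3 region and 10 of the X-linked cluster, 0 had an unadjusted p under 0.05.

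A further list held microRNAs that the study names in relation to CAG length, mostly from striatum, the brain region that degenerates in Huntington's disease, or from cortex. Of its 18 precursors 15 could be tested in liver. Of these 11 had positive changes, and the median of 0.19 became -0.11 without Q175 F3 and F4. Here 1 of 15, Mir484, had an unadjusted p under 0.05, and its fitted level was lower in Q175. The study named Mir484 from all its tissues, these livers included, so this count is not independent evidence of its direction. Mir132 and Mir212, neuronal microRNAs that share a seed and a transcript, had changes of 0.19 ± 0.16 (SE) and -0.11 ± 0.25 (SE). Mir92b had a change of 0.40 ± 0.20 (SE) with an unadjusted p of 0.0599. Mir10b, with a change of 0.99 ± 0.57 (SE), is described with the single livers.

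The 2 largest fitted changes rested on single livers. Mir133a-1 and Mir1a-1, microRNAs of striated muscle, had log2 changes of 5.44 ± 1.86 (SE) and 6.70 ± 1.88 (SE) with adjusted p-values of 0.327 and 0.291 (edgeR quasi-likelihood). Mir133a-1 was at 10392 CPM in Q175 F4 and 690.4 CPM in Q175 F3, at 1.22 to 14.6 CPM in the other 6 Q175 livers, and at 1.23 to 44.3 CPM in controls. Mir1a-1 was at 462 CPM in Q175 F4 and 25 CPM in Q175 F3, against at most 1.47 CPM in every other liver. Without Q175 F3 and F4 the log2 changes were 0.20 for Mir133a-1 (unadjusted p = 0.793) and -0.12 for Mir1a-1 (unadjusted p = 0.946).

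Of the 9 precursors of the striated muscle list, 6 had at least 50 counts in Q175 F4 and over 10 times the median of the other 23 livers, Mir133a-1 and Mir1a-1 among them. Mir208b, which lies in a slow myosin gene, was at 81.2 CPM there and at most 0.989 CPM elsewhere. Mir133a-2 was at 58.4 CPM and had 0 counts in the other 23 livers; it gives the same mature 3p strand as Mir133a-1, and the split of reads between them is uncertain. Mir206, of skeletal muscle, was at 21.4 CPM and at most 0.659 CPM elsewhere, and Mir499 at 20.2 CPM and at most 1.36 CPM elsewhere. The 9 precursors of the muscle list summed to 11041 CPM in Q175 F4, 721 CPM in Q175 F3 and 1.54 to 45.4 CPM in the 16 controls. The mesenchymal list was at 40459 CPM in Q175 F4, and 2 other Q175 livers exceeded that. The source of these microRNAs was not tested.

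In Q175 F3 a different set was raised. Mir10b, a microRNA of a Hox gene cluster with low levels in hepatocytes, was at 9481 CPM in Q175 F3 and 4038 CPM in Q175 F4, against 431 to 1856 CPM in the other 22 livers. Mir143, abundant in smooth muscle, was at 88450 CPM, against at most 29674 CPM elsewhere, and the mesenchymal list summed to 100941 CPM against 24466 to 37119 CPM in controls. Mir204, of pigment and secretory epithelia, was at 30.3 CPM in F3, 24.2 CPM in F4 and at most 11 CPM elsewhere. Among epithelial and endocrine microRNAs Mir141 reached 312 CPM (at most 98.6 elsewhere), Mir375 59 CPM (at most 22.7), Mir34c 48.8 CPM (at most 13) and Mir200c 24.7 CPM (at most 10.2). The pancreatic acinar microRNAs Mir216a and Mir217 stayed at or below 0.381 CPM in all 24 livers. Q175 F3 and F4 were both read in lane 2 and both female.

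**Figure D4:**
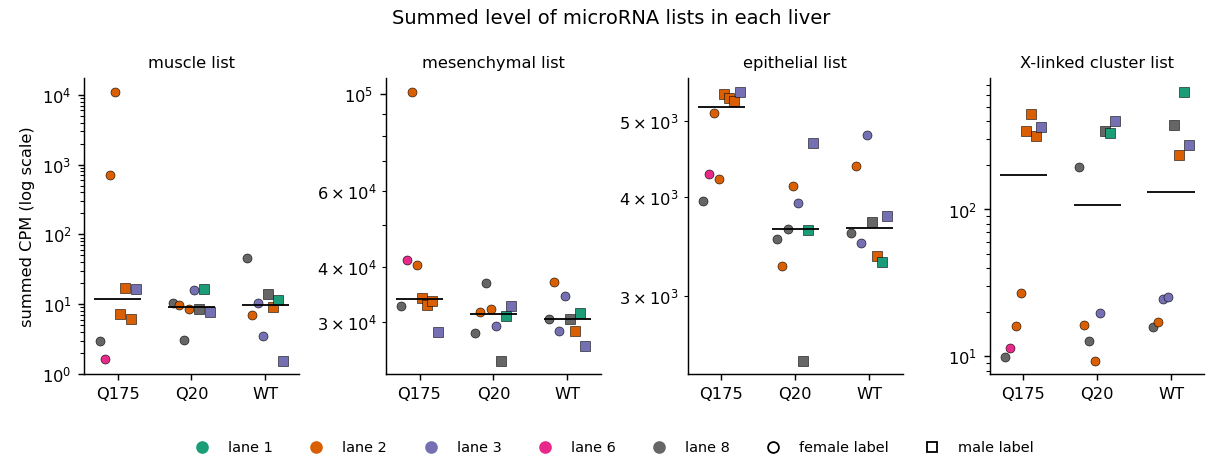
Summed CPM (log scale) of 4 lists in each liver, by genotype, coloured by lane, with a line at the group median. Q175 F4 and F3 stand above all other livers for the muscle list and Q175 F3 for the mesenchymal list; for the X-linked cluster list livers labelled male lie above those labelled female except for Q20 F1, which lies between.

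Single controls also had high levels of microRNAs of neurons and of the imprinted region. In Q20 M1 the neuronal Mir9-2 was at 95 CPM, against a median of 8.48 CPM over the other 23, and Mir124a-1 and Mir138-2 were at 14.2 and 22.8 CPM, the highest of all 24. Mir9-2 was also at 48.4 CPM in Q175 F3, 44.9 CPM in WT M3 and 41.9 CPM in Q175 F2. Mir376c of the imprinted region reached 22.1 CPM in WT M2 and 17.1 CPM in Q175 F2. Of the 18 precursors with at least 50 counts in 1 liver and over 10 times the median of the other 23 there, 6 peaked in Q175 F4, 2 in Q175 F3 and 1 each in Q175 F2, Q20 F3, Q20 M1 and WT M2. The other 6 were of the X-linked cluster, 5 highest in WT M3 and Mir881 in Q20 M3. With 13 of 24 livers labelled female the median lies at the female level for this cluster, so that these 6 could pass by sex. Mir881 was at 64.8 CPM in Q20 M3 and 54.1 CPM in Q175 M4.

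Whether the effect of Q175 depended on sex was tested as an interaction. With edgeR's quasi-likelihood test 0 of 314 precursors (0%) were called, the smallest adjusted p was 0.0509, and 34 (10.8%) had an unadjusted p under 0.05; DESeq2 called 6. The 3 with the smallest p were Mir204, Mir133a-1 and Mir10b, all with higher Q175 values in females. For Mir204 the log2 change was 3.47 ± 0.70 (SE) in females and -0.27 ± 1.29 (SE) in males. Since Q175 F2 has no weight beside the lane term, the Q175 females entered as F1, F3 and F4. Leaving out Q175 F3 and F4 left Q175 F1 as the only Q175 female with weight. The interaction of Mir204 then went from -5.21 to -1.19 and that of Mir10b from -2.89 to 0.06. That of Mir133a-1 turned from -7.62 to 4.77.

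Sex itself separated the same 24 livers clearly. Male against female gave 63 calls of 314 (20.1%) with edgeR, 36 higher in males and 27 higher in females. Mir1a-1 was among the 27 (log2 difference -6.30, edgeR adjusted p = 0.0147), although its high value was that of Q175 F4, 462 CPM. Mir141 and Mir200c, both highest in Q175 F3, were among them too. The sex comparison was not refitted without Q175 F3 and F4. Mir743b of the X-linked cluster was at 186 ± 57.9 CPM in males (SD, n = 11) and 14.3 ± 23.4 CPM in females (SD, n = 13; 7.89 ± 2.78 CPM in the 12 without Q20 F1), a log2 difference of 3.91 ± 0.48 (SE; edgeR adjusted p = 1.31e-05). Mir871, Mir1948, Mir881 and Mir470 followed, with log2 differences of 3.69, 2.86, 3.67 and 3.63. In the other direction, Mir421, Mir802, Mir374b, Mir375 and Mir193b were higher in females, with log2 differences of -0.56, -1.24, -0.58, -1.61 and -1.18. The Q175 mice followed the same division, with Mir743b at 183 CPM on average in 4 males and 7.19 CPM in 4 females. Without Q20 F1, 69 were called and the log2 difference of Mir743b was 4.42.

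The change at 10 months was set against that at 2 months, in 24 younger livers of the same 3 genotypes. The interaction of genotype and age was called for 6 of 300 precursors (2%) by edgeR, 5 with a higher value at 10 months and 1, Mir484, with a lower one. Mir125a was at 2470 ± 705 CPM (SD, n = 8 Q175 livers) and 2912 ± 328 CPM (SD, n = 16 control livers) at 2 months, and at 3898 ± 388 and 2680 ± 622 CPM at 10 months. Its log2 change went from -0.19 to 0.48, a difference of 0.68 ± 0.16 (SE; edgeR adjusted p = 0.0168). Mir96 went from -0.62 to 0.87, a difference of 1.48 ± 0.39 (SE), and Mir484 from 0.14 to -0.32, a difference of -0.46 ± 0.12 (SE), both with an edgeR adjusted p of 0.0317.

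The other 3 were Mir145a, Mir199b, a mesenchymal microRNA, and Mir10b, whose log2 changes went from -0.34 to 0.62, from -0.998 to 0.53 and from -1.38 to 0.99. These are microRNAs that were raised in Q175 F3. Without Q175 F3 and F4 the difference between ages was 0.61 for Mir145a, with an edgeR adjusted p of 0.0386. It was 0.94 for Mir199b and 0.93 for Mir10b, no longer called (edgeR adjusted p = 0.12 and 0.161). Of Mir125a, Mir96 and Mir484 all 3 kept their calls in that fit. At 2 months Q175 differed from controls in 33 of 316 precursors tested by edgeR, of which 32 were tested at 10 months. Of these 0 were called there, and 10 had the same sign and 22 the opposite sign. Mir145a alone had an unadjusted p under 0.05, with the opposite sign. Signs were not counted over all precursors tested at both ages, so this split cannot be read as particular to the 32.

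**Figure D5:**
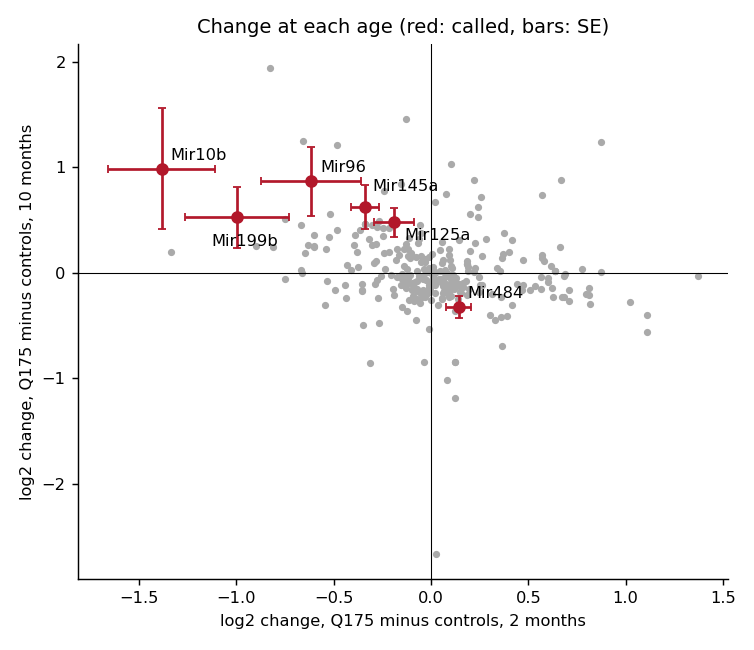
Log2 change of Q175 against controls at 2 months (horizontal) and at 10 months (vertical), 1 point per precursor tested at both ages, with Mir1a-1 and Mir133a-1 off the scale; the 6 with a called difference between ages are red and labelled, with SE bars. The 5 in the upper left were lower at 2 months and higher at 10 months, and Mir484 was the reverse.

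Q140 livers of the same age were a second reference, from the line that gave rise to Q175. With edgeR's quasi-likelihood test 0 of 314 precursors (0%) were called between 8 Q175 and 8 Q140 livers, with 27 (8.6%) at an unadjusted p under 0.05, and DESeq2 called 6. Mir1a-1 had the smallest p, with a log2 difference of 8.20 ± 1.48 (SE) that became 0.43 without Q175 F3 and F4. Mir802 was next, with a difference of -0.56 ± 0.14 (SE), and then Mir1247 with 0.94 ± 0.24 (SE) at 170.2 ± 121 CPM in Q175 and 95.8 ± 72 CPM in Q140 (SD, n = 8 each). The miR-183 cluster, chosen after its values were seen, was higher than in Q140 as well, with log2 differences of 0.50 ± 0.14 for Mir183, 0.47 ± 0.15 for Mir182 and 0.75 ± 0.25 for Mir96 (SE). This comparison uses the same Q175 livers as that with the controls, so the values are not independent of each other.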

How the data were processed

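Small RNA was sequenced by the authors from the livers described above. Per the study's methods, adapter-clipped 36-base single-end reads were aligned to mm10 with STAR and counted with HTSeq; the submitters' processing notes also name CASAVA 1.8.2. The deposited table holds estimated counts for 1626 precursor transcripts. Of values above 0 in the 24 livers 49.2% were whole, and how the fractions arose is not stated. The estimated counts were rounded to whole numbers before each test. The authors' FPKM table was not used. All 167 sample columns were matched to samples by description, and 0 were unmatched.

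Transcripts were matched to GENCODE M21 (mm10; 1228 of 1626 named, the others given by transcript identifier). CPM divides the estimated count by the liver's total in M counts. Testing required 10 or more counts in 7 or more samples of the age in question. Groups were compared with edgeR 4.0.16 in R 4.3.3 (quasi-likelihood F test, TMM factors, Benjamini-Hochberg adjustment over all precursors tested), with sex as labelled and sequencing lane as covariates. An adjusted p under 0.05 is a call. Standard errors were derived from the F statistic as the size of the log2 change over the root of F, and 95% intervals from the matching t quantile. Interactions of genotype with sex and with age were single coefficients of the same model. Total counts were compared by an exact two-sided permutation test (scipy 1.17.1). No molecular identifiers are described, so amplification adds to counting error, and levels of different microRNAs are not molecule numbers.

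Named precursors were the 10 higher and 10 lower with the smallest unadjusted p, the 8 most abundant, for each list the 3 most abundant members and any with an unadjusted p under 0.05, those with at least 50 counts in 1 liver and over 10 times the median of the other 23, and the leading 5 per direction among calls (3 where none) in the other comparisons. The remaining names are list members or cluster neighbours of these, taken after their values were seen. The comparison, lists and tests were chosen with earlier results of these data known. Alternatives were RLE factors, DESeq2 1.42.0, no low-count filter, no lane term, robust dispersions, a replicate block, Q20 or WT controls alone, 1 fit of all genotypes, lane 2 alone, outlying counts replaced (83 values) with DESeq2, each liver left out, and, added after seeing the data, Q175 F3 and F4 both left out. The fits were tested on simulated data. The 6 month livers were not used here, since Q175 and Q20 shared no lane among libraries of 1 index type.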

Additional observations from a re-analysis of the deposited data

Results flagged for a closer look

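Livers that stood far from the rest of their own group by Dixon's test of the gap to the nearest value are given here. Of 124 groups examined 27 held such a liver. By chance the test flags about 1 in 20 groups of normally distributed values. CPM that are skewed or mostly 0 need not keep to that rate, so these numbers cannot be read against it. Mir208b in Q20 F2, for example, was flagged on 1 count. Among precursors named because 1 liver far exceeded the others the number was 20 of 49, which that choice favoured, and among the other precursors it was 7 of 75. In Q175 F4, Mir133a-1 was at 10392 CPM, Mir1a-1 at 462 CPM, Mir208b at 81.2 CPM, Mir133a-2 at 58.4 CPM, Mir206 at 21.4 CPM and Mir499 at 20.2 CPM, each the highest of the 8 Q175 livers. In Q175 F3, Mir143 was at 88450 CPM, Mir10b at 9481 CPM and Mir145a at 1743 CPM. In Q175 F2, the liver alone in its lane, ENSMUST00000175457 was at 42.3 CPM and Mir376c at 17.1 CPM, and in Q175 F1 Mir802 was at 2877 CPM.

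Among Q20 livers, Mir182 in Q20 M3 was highest at 2939 CPM, while Mir27b at 19738 CPM and Mir186 at 914 CPM were lowest there. Q20 M1 was highest for Mir9-2 at 95 CPM and Mir219a-1 at 17.3 CPM. Mir1957a reached 15.5 CPM in Q20 F3, ENSMUST00000175457 3.85 CPM in Q20 M2 and Mir208b 0.230 CPM (1 count) in Q20 F2. Among WT livers, WT M3 was highest for Mir9-2 at 44.9 CPM, Mir465c-1 and Mir465c-2 at 25.7 CPM each, Mir204 at 8.21 CPM and ENSMUST00000175457 at 6.35 CPM. Mir133a-1 was at 44.3 CPM in WT F1 and Mir499 at 1.053 CPM in WT M2. Mir465c-1 and Mir465c-2 have the same counts in every liver and are 1 measurement.

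The log2 change of Q175 against controls differed between 2 and 10 months, by the test of the interaction (edgeR, adjusted p under 0.05), for Mir10b by 2.40, Mir199b by 1.55, Mir96 by 1.48, Mir145a by 0.98, Mir125a by 0.68 and Mir484 by -0.46. The 2 ages come from different mice, and lanes were fitted within each age.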

How the results depend on the processing

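For Q175 against controls, 0 calls became 3 with DESeq2 (Mir1a-1, Mir133a-1 and Mir125a), 12 with no low-count filter, 1 in 1 fit of all genotypes (Mir133a-1) and 1 with outlying counts replaced and DESeq2 (Mir125a). Leaving out each liver gave 0 to 1 calls and 14 to 44 precursors with an unadjusted p under 0.05, against 21. That second number was 61 with no low-count filter, 13 with WT controls alone and 42 in lane 2 alone. Fits with no low-count filter tested every precursor with a rounded count above 0 in the livers compared. Their counts, here and below, come from a larger total and cannot be set directly against those of the filtered fits. For the interaction with sex, 0 calls became 3 with RLE factors, 6 with DESeq2, 15 with no low-count filter (78 unadjusted, against 34) and 7 with no lane term. Male against female gave 98 calls with no low-count filter (176 unadjusted, against 107). For the interaction with age, 6 calls became 14 with RLE factors, 22 with DESeq2, 37 with no low-count filter (117 unadjusted, against 74) and 21 with no lane term. For Q175 against Q140, 0 calls became 2 with RLE factors, 6 with DESeq2 and 14 with no low-count filter (64 unadjusted, against 27). The causes were not tested.

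Of the 21 precursors with an unadjusted p under 0.05 in the main comparison (edgeR quasi-likelihood), 11 stayed under it with no lane term. Without Q175 F3 and F4 11 did, and within lane 2 alone 12. Of the 20 leading precursors, 19 kept their sign in all 36 alternatives. Most of these alternatives share nearly all livers with the main fit, and the precursors were chosen by small p, so kept signs are not independent support. Mir1a-1 turned to -0.12 without Q175 F3 and F4. Under that alternative, with Q175 F1 the only Q175 female with weight, the sex interaction turned to 4.77 for Mir133a-1 and 0.060 for Mir10b. Replicate numbers did not pair the samples: same-numbered livers correlated at -0.254 to 0.246, with 6 of 22 pairs over 0.1. With the replicate block, Q175 against controls had 0 calls and 19 unadjusted, Q175 against Q140 had 0 calls and 17 unadjusted, and Mir1a-1 against Q140 turned to -0.095. Robust dispersions and Q20 controls alone changed no count of calls of the main comparison. CPM with TMM factors moved each of the 18 single-liver values by less than the spread over the 24 livers. That spread is made in large part by the same high values, so this check could hardly have come out otherwise. Precursors under 100 CPM were measured with a median SE of 0.32, and Q175 F2 has no weight in any fit with lane.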

Other observations

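MicroRNA levels of 2 WT livers read in lane 3 lay at the edges of the 24. In WT M4 the hepatocyte list summed to 733121 CPM, the highest of all, and the let-7 list to 22407 CPM, the lowest, while WT F4 had the highest let-7 sum at 79744 CPM. The other 22 livers lay between 34085 and 46824 CPM for let-7. Imprinted Dlk1-Dio3 microRNAs, which are made in neurons and in developing liver, summed to 1365 CPM in WT M2, 1031 CPM in Q175 F3 and 950.3 CPM in WT M3, against a median of 353 CPM over the 23 livers other than WT M2.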
